A study of Homo sapiens with 7 samples.

Results

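The genes of 10 proteins that write, or erase, the histone marks profiled in this series were followed through the peak lists of HCT116, a human colorectal carcinoma cell line. They were EZH2, EZH1, SUZ12 and EED of Polycomb repressive complex PRC2, the methyltransferases SETD2, KMT2A, KMT2C and KMT2D, the acetyltransferase KAT2A and the demethylase KDM5B. They were chosen by name, by a rule that uses no measured value, although earlier results of these data were known when they were chosen. They are 10 of the 20163 protein-coding genes of GENCODE release 44 on hg19. Every interval of 6 lists was taken that touched the annotated gene body or the 10 kb on either side of it. SUZ12 and EED have no methyltransferase activity of their own, and KDM5B was the only eraser among the 10, with none that acts on H3K27me3.

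Histone marks are placed and removed by dedicated enzymes, and a cell transcribes the genes of these enzymes from chromatin that carries the same marks. H3K4me3 and H3K9Ac lie over the start sites of genes in use, H3K4me1 lies beside such starts and over enhancers, and H3K36me3 is laid down behind elongating RNA polymerase II by SETD2. PRC2 places H3K27me3, a mark of silenced genes, whereas the zinc-finger protein CTCF recognises a defined DNA sequence and shapes chromatin loops.

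The study sheared chromatin in a 96-well plate with the PIXUL sonicator, and each antibody gave 1 library from a single well of 200000 HCT116 cells. The libraries for H3K4me1, H3K4me3, H3K9Ac, H3K27me3, H3K36me3 and CTCF were used, and H3K27Ac was not analysed here. With 1 library per mark there were no replicates, so no value below has a replicate error and no difference between genes or marks was tested. Each interval carries a fold enrichment, a linear ratio over the peak caller's background, and a −log10 q-value. The lists held between 16112 (H3K4me3) and 55270 (H3K27me3) intervals, many of them weak. An interval is called past the limits when it met those of the study's methods, a q-value under 1e-03 and a fold above 2 for H3K4me1 and H3K27me3, and a q-value under 1e-10 and a fold above 5 for the other lists. Read depth cannot be had from such lists and is unknown. The peak names of 5 lists carry the name of the cell line, but 0 of the 55270 names in the H3K27me3 list do, so the origin of that list rests on its label alone.

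Over the 10 genes and their flanks lay 171 intervals, of which 62 were past the limits. H3K4me3 gave 16 intervals (15 past the limits), H3K9Ac gave 20 (13), H3K4me1 gave 33 (22), H3K36me3 gave 74 (0), H3K27me3 gave 5 (0) and CTCF gave 23 (12). Over the whole lists, 12749 of 16112 H3K4me3, 12720 of 34164 H3K9Ac and 32292 of 50521 H3K4me1 intervals were past the limits. So were 90 of 40010 for H3K36me3, 1552 of 55270 for H3K27me3 and 24536 of 44812 for CTCF. Few H3K36me3 and H3K27me3 intervals were thus past the limits anywhere. The counts of 0 are not read as a trait of the members. The active marks clustered at the start sites and H3K36me3 ran along the bodies, as the maps of the 10 genes show. Fewest intervals lay over SUZ12 (9) and most over KMT2C (34), whose body was the longest of the 10. Several strong intervals in the flanks belonged to neighbouring genes and are named with those genes.

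**Figure D1:**
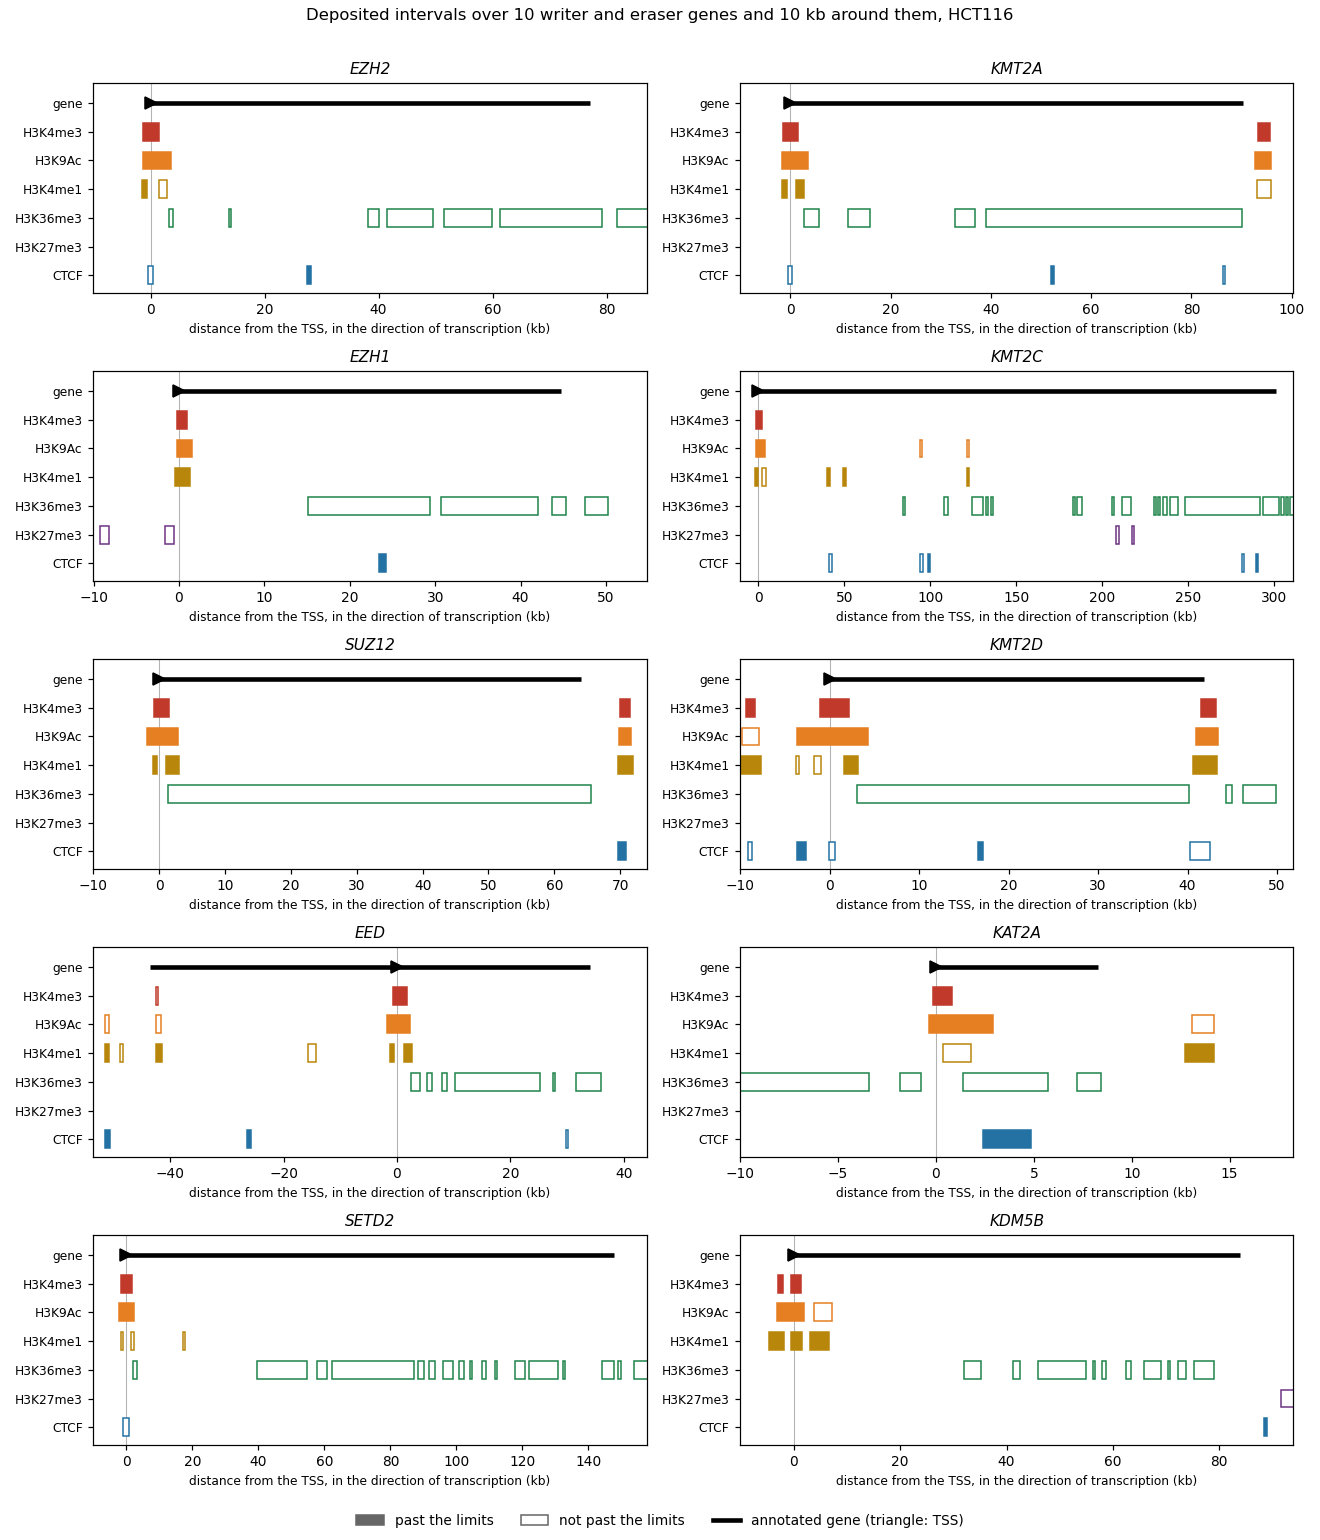
Each panel maps 1 gene with all deposited intervals of the 6 lists, placed by distance from the transcription start site in kb along the direction of transcription, with filled boxes past the limits and open boxes not past them. In all 10 panels filled H3K4me3 and H3K9Ac boxes cover the start site, while the 74 H3K36me3 and 5 H3K27me3 boxes are all open.

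The promoters of 3 members are printed because they span the range of starts seen here: SUZ12, whose start has a near-identical copy elsewhere on its chromosome, KMT2D, with the widest H3K9Ac interval of the 10, and KAT2A, with the narrowest H3K4me3 interval. Each is the stretch of 250 bases of hg19 that ends at the base before the start of the canonical transcript, read 5′ to 3′ on the strand of the gene, with every CpG in capitals. SUZ12 is on the plus strand, at chr17:30263776-30264025, KMT2D on the minus strand, at chr12:49454578-49454827, and KAT2A on the minus strand, at chr17:40273386-40273635.
SUZ12: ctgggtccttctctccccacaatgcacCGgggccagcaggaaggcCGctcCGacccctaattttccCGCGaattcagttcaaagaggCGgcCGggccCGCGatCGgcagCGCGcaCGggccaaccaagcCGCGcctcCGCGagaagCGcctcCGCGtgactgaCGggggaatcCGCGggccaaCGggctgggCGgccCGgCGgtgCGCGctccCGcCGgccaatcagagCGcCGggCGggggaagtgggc
KMT2D: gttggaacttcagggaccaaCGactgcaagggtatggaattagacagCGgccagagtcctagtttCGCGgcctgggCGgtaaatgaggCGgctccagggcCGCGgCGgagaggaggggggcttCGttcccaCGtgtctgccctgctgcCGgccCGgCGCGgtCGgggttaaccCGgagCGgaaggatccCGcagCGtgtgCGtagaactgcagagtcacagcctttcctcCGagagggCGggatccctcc
KAT2A: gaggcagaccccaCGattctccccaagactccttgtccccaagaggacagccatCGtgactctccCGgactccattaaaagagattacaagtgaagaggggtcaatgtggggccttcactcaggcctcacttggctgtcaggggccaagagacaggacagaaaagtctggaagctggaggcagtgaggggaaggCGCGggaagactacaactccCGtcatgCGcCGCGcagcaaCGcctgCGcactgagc
The 3 windows held 34, 23 and 11 CpG. Over all 10 members the count ranged from 11 (EED and KAT2A) to 48 (KMT2C), with a median of 26.5 against 23 over the 11924 protein-coding genes with H3K4me3 past the limits at the start site, called the marked genes from here on. All 3 windows lay wholly inside an H3K9Ac interval past the limits, and those of SUZ12 and KMT2D also lay wholly inside an H3K4me3 interval past the limits.

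All 10 genes had an H3K4me3 interval past the limits within 1 kb of the start site, which 59.1% of all protein-coding genes had (95% Wilson interval 58.5 to 59.8%, counting error only). H3K9Ac past the limits was likewise found at 10 of 10 starts, against 58.5%, and both marks together at 10 of 10, against 57.5%. H3K4me1 was past the limits within 1 kb of 7 starts, against 49.1% of all protein-coding genes and 74.5% of the genes with H3K4me3 there. H3K36me3, H3K27me3 and CTCF were past the limits at 0 of 10 canonical starts, against 0.298%, 1.22% and 13.6% of all protein-coding genes. The start sites of the 10 genes thus carried the same pair of marks, and the genes differed in how strong and how wide these were.

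EZH2 encodes the main catalytic subunit of PRC2 in dividing cells and lies at chr7:148504349-148581413 on the minus strand. Its H3K4me3 interval was 2780 bp wide and reached a fold of 39.7, the highest of the 10 members and at percentile 97.6 of the marked genes. The H3K9Ac interval there was 4942 bp wide with a fold of 21.7, also the highest of the 10 members. H3K9Ac began 1322 bp before the start site and ran to 3619 bp after it, whereas H3K4me3 ended at 1492 bp. Inside the body, H3K36me3 was sparse over the long first intron and then dense. Of 5 equal segments of the canonical transcript, the first 3 were 6.55%, 0% and 43.1% covered and the last 2 were 77.9% and 100% covered. The H3K36me3 interval at its 3′ end, 17886 bp wide, had a fold of 4.27, the highest of the 74.

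EZH1 encodes the alternative catalytic subunit, which is the main one in many resting cells, and lies at chr17:40852293-40897067 on the minus strand. Its start was marked by narrower intervals than that of EZH2. H3K4me3 was 1132 bp wide with a fold of 22.5, and H3K9Ac was 1736 bp wide with a fold of 11.5, the narrowest H3K9Ac interval of the 10 members. The H3K4me3 width stood at percentile 5.21 and its fold at percentile 49.96 of the marked genes, so the fold was ordinary and the width was small. An H3K4me1 interval of 1803 bp, past the limits with a fold of 4.10, covered the start site itself. H3K36me3 began 15069 bp into the gene and covered 59.5% of the body.

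SUZ12 encodes the subunit that holds PRC2 together and lies at chr17:30264026-30328057 on the plus strand. H3K4me3 at its start was 2304 bp wide with a fold of 25.4, and H3K9Ac was 4669 bp wide with a fold of 13.7. A single H3K36me3 interval of 64109 bp, the widest of the 74, ran from 1388 bp after the start site to past the 3′ end and covered 97.8% of the body, with a fold of 4.21. This promoter has a near-identical copy at chr17:29057947-29060130, where the annotation places the pseudogene SUZ12P1, with 95.9% identity over the matched part of the H3K4me3 interval. The copy carried its own H3K4me3 interval past the limits, 1669 bp wide with a fold of 28.4, and an H3K9Ac interval of 3976 bp with a fold of 11.5. Reads from such copies can be placed at either locus, and the share of the SUZ12 values that this affects was not tested. Of the 9 SUZ12 intervals, 4 had this copy over at least 50% of their length, all at or beside the promoter. The H3K36me3 interval did not meet this rule, and copies of shorter parts of it were not counted. Its first part overlaps the H3K4me1 interval that begins 1022 bp after the start site, which had the copy. Beyond the 3′ end lay the start of LRRC37B, with H3K4me3 at a fold of 27.04.

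EED encodes the subunit that reads H3K27me3 and stimulates the complex, and its gene lies at chr11:85912254-85989855 on the plus strand, with the canonical start at 85955795. Its H3K4me3 interval was 2573 bp wide with a fold of 18.4, and its H3K9Ac interval 4121 bp wide with a fold of 11.4. The annotated gene begins far upstream of this start, and there H3K4me3 gave only an interval of 368 bp with a fold of 2.46, not past the limits, from 42526 to 42159 bp before the canonical start. An H3K4me1 interval of 1000 bp with a fold of 4.03 lay over the same place and was past the limits. The canonical start was thus the one with strong H3K4me3. A long non-coding RNA gene, ENSG00000288809, starts inside the same H3K4me3 and H3K9Ac intervals, so the values cannot be assigned to EED alone. H3K36me3 covered 27.2% of the annotated body and 61.9% of the canonical transcript.

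SETD2, the enzyme that places H3K36me3, lies at chr3:47057918-47205603 on the minus strand. Its H3K4me3 interval was 3254 bp wide, the widest of the 10 members, and had a fold of 36.7 at percentile 95.2 of the marked genes. H3K9Ac there was 4300 bp wide with a fold of 20.4. H3K4me1 was weak around this start, with intervals of 353 bp upstream (fold 3.15) and 849 bp downstream (fold 3.69), neither past the limits. SETD2 was the only member with no H3K4me1 interval past the limits in its body or the flanks. Of the 10 members 9 had one, and so did 71.9% of all protein-coding genes, of any length. H3K36me3 itself, the product of SETD2, lay in 17 pieces over the gene and its flanks, and those within the gene covered 48.3% of the body. The first piece, 1203 bp wide with a fold of 2.85, began 1926 bp after the start site, and the next began at 39427 bp. The widest piece measured 24885 bp, with a fold of 3.30. The start of KIF9-AS1, an antisense RNA, lay inside the same promoter intervals.

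KMT2A, KMT2C and KMT2D encode large H3K4 methyltransferases. KMT2A acts largely at promoters, and KMT2C and KMT2D place H3K4me1 at enhancers. KMT2A lies at chr11:118307171-118397547 on the plus strand, KMT2C at chr7:151832007-152133729 on the minus strand, and KMT2D at chr12:49412758-49454577 on the minus strand. Their H3K4me3 intervals were of like width, 3044 bp at KMT2A, 3252 bp at KMT2C and 3234 bp at KMT2D, at percentiles 87.7, 91.0 and 90.7 of the marked genes, with folds of 29.2, 18.2 and 36.6. KMT2C thus had one of the widest H3K4me3 intervals of the 10 members together with the lowest fold. H3K9Ac followed the same order, with folds of 17.0 at KMT2A, 9.97 at KMT2C and 21.3 at KMT2D. Another gene, ENSG00000255384, starts inside the KMT2A intervals of both marks, so these cannot be assigned to KMT2A alone.

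KMT2C was the longest of the 10 genes, at 301723 bp, and carried marked sites deep in its introns. H3K4me1 intervals past the limits lay 40076 bp (fold 3.52), 49102 bp (fold 3.98) and 121191 bp (fold 3.87) after the start site. H3K9Ac intervals at 94033 and 121255 bp had folds of 3.08 and 2.64 and were not past the limits. The H3K9Ac interval at 121255 bp lay inside the H3K4me1 interval that began at 121191 bp. H3K36me3 was first found 83904 bp into the gene, the longest such distance of the 10, and coverage rose from 0% in the first to 90.02% in the last of 5 equal segments of the transcript. Of the 34 KMT2C intervals, 12 had near-identical copies elsewhere in hg19 over at least 50% of their length. These included the H3K4me1 interval at 49102 bp and both H3K4me1 intervals beside the promoter. The H3K4me3 and H3K9Ac intervals at the start did not meet this rule. Each of them overlaps both of those promoter H3K4me1 intervals, so part of its sequence is copied too. How far this affects their values was not tested.

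KMT2D had the widest H3K9Ac interval of the 10 members, 7940 bp, from 3692 bp before to 4247 bp after the start site. H3K36me3 then covered nearly the whole gene as 1 interval of 37167 bp with a fold of 4.10, and 88.9% of the body was covered. At KMT2A, H3K36me3 covered 69.4% of the body, with 1 interval of 51160 bp over the 3′ part. Both genes had marked neighbours within the flanks. Beyond the 3′ end of KMT2D the start of PRKAG1 had H3K4me3 at a fold of 18.998, upstream of KMT2D the start of RHEBL1 had 10.9, and beyond the 3′ end of KMT2A the starts of TTC36-AS1 and TMEM25 shared an interval with a fold of 33.6.

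KAT2A, also known as GCN5, acetylates H3K9 as part of large coactivator complexes and lies at chr17:40265129-40273385 on the minus strand. At 8257 bp it was the shortest of the 10 genes, and its H3K4me3 interval, 981 bp wide, was the narrowest. The width stood at percentile 2.62 of the marked genes, but the fold of 28.9 stood at percentile 78.9, so the signal was narrow and strong. H3K9Ac, the mark that KAT2A places, was 3309 bp wide there with a fold of 11.7, and it ran 2934 bp into the gene where H3K4me3 ended at 808 bp. H3K36me3 covered 65.3% of the body. Upstream lay an interval of 12784 bp (fold 3.25), from 16206 to 3423 bp before the start site, and another 1854 to 776 bp before it, over the start of HSPB9. The nearer of them was the only deposited H3K36me3 interval within 1 kb of a member's start, which 6.49% of all protein-coding genes had.

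KDM5B removes methyl groups from H3K4 and lies at chr1:202693623-202777615 on the minus strand. The mark it erases was present at its own start, with H3K4me3 of 1894 bp and a fold of 27.2. A second H3K4me3 interval of 948 bp, past the limits with a fold of 8.01, lay 2952 to 2005 bp upstream, where the starts of PCAT6 and ENSG00000260021 are annotated. One H3K9Ac interval of 5103 bp with a fold of 10.3 spanned both starts, so its width cannot be assigned to KDM5B alone. KDM5B had the strongest H3K4me1 around its start apart from SUZ12. Intervals of 2787 bp upstream (fold 4.74), 2152 bp over the start site (fold 5.18) and 3605 bp in the first intron (fold 4.99) were all past the limits.

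**Figure D2:**
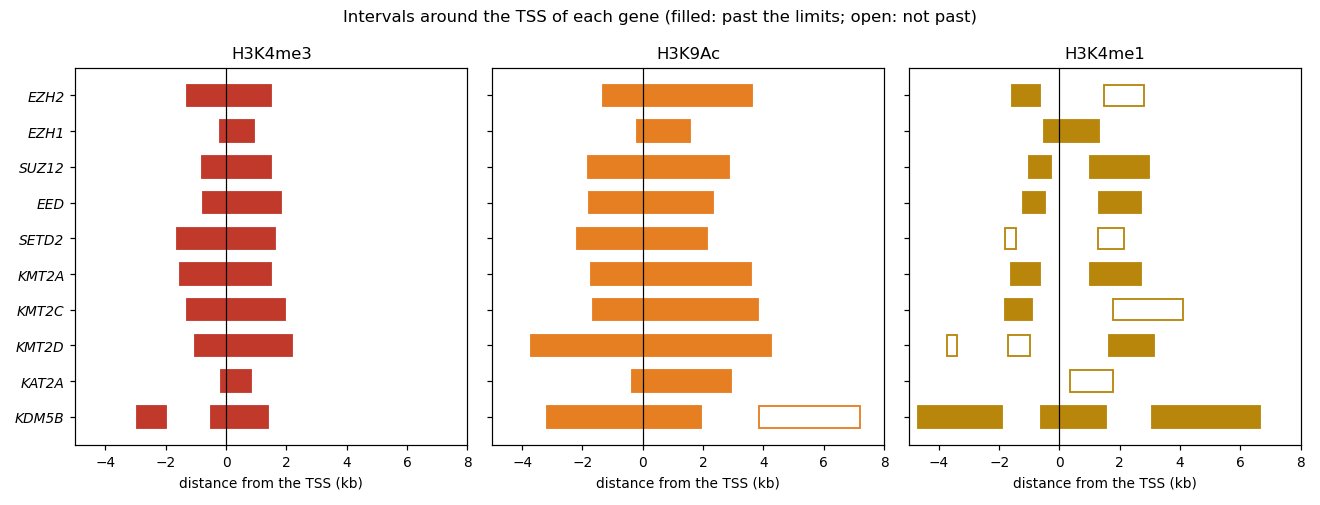
Intervals of H3K4me3, H3K9Ac and H3K4me1 near the start site of each of the 10 genes, placed by distance from the start site in kb, filled where past the limits and open where not. H3K4me3 and H3K9Ac cover all 10 start sites, whereas H3K4me1 covers those of EZH1 and KDM5B and lies to the sides of the others, with gaps of 1317 to 2745 bp where it lies on both sides.

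Set beside the 11924 protein-coding genes with H3K4me3 past the limits at the start site, the 10 intervals of this mark had a median width of 2676.5 bp against 2061 bp (interquartile range 1634 to 2591 bp). Their median fold was 28.0 against 22.5 (17.3 to 27.8). In each measure 7 of 10 members lay above the median of the marked genes. The 3 narrower ones were KAT2A, EZH1 and KDM5B. The H3K9Ac intervals had a median width of 4805.5 bp against 3112 bp (2340 to 4305 bp), and 9 of 10 members, all but EZH1, lay above that median. Their median fold was 12.7 against 13.1, with 5 of 10 members above it, and the members were spread from percentile 20.8 (KMT2C) to 96.8 (EZH2). Most members were thus wider than the median in H3K9Ac, whereas their folds fell on both sides of it. The greater width lay mostly inside the gene, where the H3K9Ac intervals reached a median of 2895.5 bp past the start site against 1689 bp. The H3K9Ac interval contained the whole H3K4me3 interval at 9 of 10 members, against 90.1% of the 11590 genes with both marks. The exception was EZH1, where H3K4me3 began 203 bp and H3K9Ac 181 bp before the start site.

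**Figure D3:**
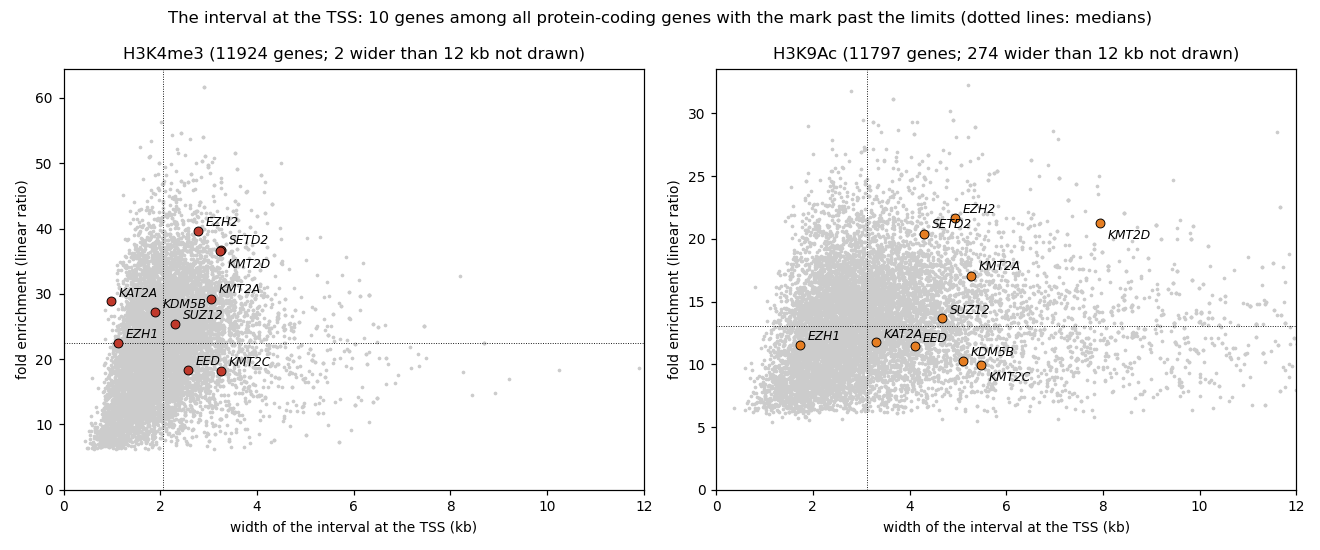
Fold enrichment (linear ratio) against width in kb of the interval at the start site, for H3K4me3 in 11924 and H3K9Ac in 11797 protein-coding genes with that mark past the limits (grey points) and for the 10 members (coloured points), with medians as dotted lines. EZH2, SETD2 and KMT2D stand high in both panels, KAT2A and EZH1 are narrow in H3K4me3, and KMT2D is the widest member in H3K9Ac at 7940 bp.

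H3K4me1 lay to the sides of most of these starts. A deposited H3K4me1 interval covered the start site of 2 of 10 members, EZH1 and KDM5B, against 58.3% of the marked genes. Counting only intervals past the limits, the number was also 2, against 50.2%. At 7 members H3K4me1 lay both upstream and downstream with an uncovered gap between. Both sides were past the limits at SUZ12, EED and KMT2A. Only the upstream side was at EZH2 and KMT2C, only the downstream side at KMT2D, and neither at SETD2. The flanking intervals of SUZ12 and KMT2C have the near-identical copies described above. The gap was shortest at SUZ12 (1317 bp), followed by KMT2A (1668 bp), EED (1786 bp), EZH2 (2119 bp), KMT2D (2630 bp), KMT2C (2676 bp) and SETD2 (2745 bp). KAT2A had H3K4me1 on the downstream side alone, from 349 bp after the start site. Over all marked genes, the 4971 whose start site lay in no H3K4me1 interval had wider H3K4me3, with a median of 2397 bp, than the 6953 whose start site was covered, with a median of 1835 bp. EZH1 and KDM5B, at 1132 and 1894 bp, were also among the 3 members with the narrowest H3K4me3. KAT2A, at 981 bp, went against this order. No test was made of these differences.

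H3K36me3, the mark of elongation, was found in the body of 10 of 10 members. The share was 56.3% of all protein-coding genes and 83.9% of those with H3K4me3 at the start site, both of any length. None of the 74 intervals over the members was past the limits, and their highest −log10 q-value was 4.76 and their highest fold 4.27. The whole list was weak in this sense, with 90 of its 40010 intervals past the limits. Its median fold was 2.97, close to the 2.997 of the members. All deposited intervals were used for this mark. The share of the body covered was 97.8% at SUZ12, 88.9% at KMT2D, 69.4% at KMT2A, 65.3% at KAT2A, 59.5% at EZH1, 48.3% at SETD2, 45.6% at EZH2, 28.6% at KDM5B, 27.3% at KMT2C and 27.2% at EED. The median was 53.9%, against 37.7% for the marked genes, and 7 of 10 members were above it. Long genes were less covered in general, with a median of 21.2% among the 5405 marked genes of at least 40 kb, and 10 of 10 members were above that value. Of the members, 9 were longer than 40 kb.

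On average over the 10 members, coverage was lowest at the 5′ end of the transcript and higher from the middle on. With each canonical transcript cut into 5 equal segments, mean coverage over the 10 members was 25.9%, 48.6%, 78.1%, 68.9% and 75.005% from the first to the last. The marked genes as a whole rose from 22.2% to 54.7%. The members varied around these means, from 0% (EZH1, KMT2C and KDM5B) to 89.2% (SUZ12) in the first segment and from 14.8% (KMT2C) to 100% in the middle one. In the first segment the means of the members and the marked genes were close, and in the middle segment they stood at 78.1% against 47.4%. The distance from the start site to the first H3K36me3 base ranged from 1366 bp at KAT2A to 83904 bp at KMT2C. At KDM5B it was 31994 bp and at EZH1 15069 bp, and at the other 6 members it lay between 1388 and 3216 bp. The first piece could be short and isolated, as at SETD2, where the next began at 39427 bp.

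**Figure D4:**
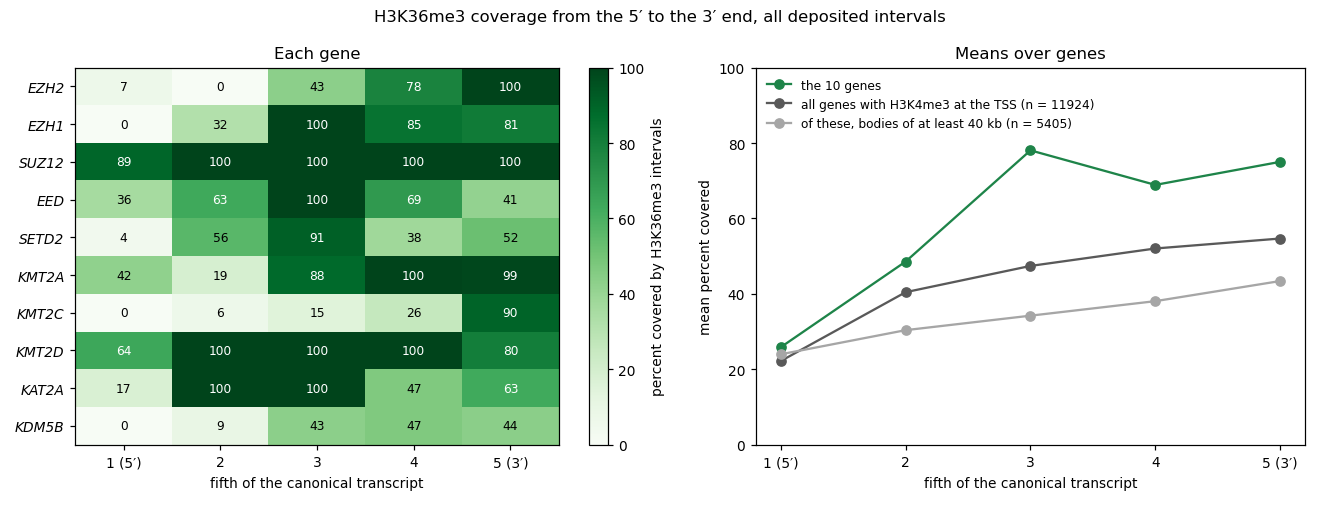
Left, percent of each of 5 equal segments of the canonical transcript covered by deposited H3K36me3 intervals, from the 5′ to the 3′ end, for each of the 10 genes; right, the mean over the 10 genes, over all 11924 marked genes and over the 5405 of these with bodies of at least 40 kb. The mean of the 10 genes starts at 25.9%, near the other curves, and reaches 78.1% in the middle segment.

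H3K27me3, the product of PRC2, was found over the members about as often as over other genes. Deposited intervals lay in or around 3 of 10 members, against 30% of all protein-coding genes. The members were long, with a median body of 77333.5 bp against 33957.5 bp for the marked genes. A share among genes of like length was not computed. None was past the limits at the start or in the body of a member, which 3.03% of all protein-coding genes had, and none was past them in the flanks. Their highest −log10 q-value was 1.46, where the limit corresponds to 3. EZH1 had an interval 1658 to 529 bp upstream of its start (fold 2.71), the only one within 1 kb of a member's start site, which 9.6% of all protein-coding genes had. It had another from 9189 to 8198 bp upstream (fold 2.79). KDM5B had 1 interval beyond its 3′ end, from 91591 to 94162 bp after the start site (fold 2.63). KMT2C had intervals in introns 18 and 23, at 208170 bp (fold 2.79) and 217294 bp (fold 2.55). Both KMT2C intervals have 4 near-identical copies in hg19, at BAGE2 among others, and those of the intron 18 interval also at KMT2C pseudogenes. For each of them, H3K27me3 intervals lay over the copies, at least 1 of these past the limits. The highest fold there was 3.77 and the greatest width 47532 bp, which may belong to different intervals. Whether reads from the copies made the weak KMT2C intervals was not tested. EZH2, SUZ12, EED, SETD2, KMT2A, KMT2D and KAT2A had no H3K27me3 interval in the body or the flanks.

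CTCF intervals lay in the body or flanks of 10 of 10 members, against 78.9% of all protein-coding genes, and 9 of 10 had one past the limits, against 62.4%. The exception was SETD2. These shares are over genes of any length, and the median body was 77333.5 bp for the members against 33957.5 bp for the marked genes. Shares among genes of like length were not computed, so no difference is read from these counts. The members' CTCF intervals lay mostly away from the canonical starts. Weak CTCF intervals covered the start sites of EZH2 (fold 3.49), SETD2 (4.77), KMT2A (3.17) and KMT2D (4.30). These were 4 of 10 members with a deposited interval within 1 kb of the start, against 29.5% of all protein-coding genes and 43.6% of those with H3K4me3. None of the 4 was past the limits. With the start of any annotated transcript, 4 of 10 members had CTCF past the limits within 1 kb. The strongest CTCF interval near a member, with a fold of 17.8, lay beyond the 3′ end of SUZ12, over the start of LRRC37B. Within the bodies, the highest folds were 11.8 at KMT2A, in exon 11, and 11.2 at KMT2C, in intron 53. Of the 23 intervals, 12 overlapped H3K4me3, H3K9Ac or H3K4me1, 6 lay in H3K36me3 alone and 5 in no other interval. The same split over the whole CTCF list was not computed, so it is not read as a trait of the members.

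The CTCF core motif, a pattern of 12 bases that allows alternatives at 4 of them, was searched on both strands of each interval. It was found without mismatch in 1 of the 23 intervals, against 15.7% of the whole list and 22.4% of the list past the limits. The same intervals moved by 10 kb held it in 0.462% of cases. With 1 mismatch allowed, 9 of 23 held it, against 52.9% of the whole list. Of these, 7 lay in intervals past the limits, inside the genes or upstream, and 6 of the 7 are printed to show where the motif lies and what surrounds it. The other, in exon 23 of KMT2D at a fold of 9.12, is not printed. Each line gives 60 bases of hg19 on the strand that carries the motif, with the 12 bases that match it in capitals. The first is the match without mismatch, in intron 2 of KMT2C at chr7:152034018-152034077 on the plus strand, in an interval with a fold of 10.5. The others, each with 1 mismatch, lie in intron 53 of KMT2C at chr7:151843240-151843299 (minus strand), in exon 11 of KMT2A at chr11:118359366-118359425 (minus strand), in intron 1 of EZH2 at chr7:148553544-148553603 (plus strand), in intron 6 of KAT2A at chr17:40270759-40270818 (plus strand) and upstream of KMT2D at chr12:49457858-49457917 (plus strand).
KMT2C intron 2: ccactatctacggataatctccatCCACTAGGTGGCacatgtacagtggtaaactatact
KMT2C intron 53: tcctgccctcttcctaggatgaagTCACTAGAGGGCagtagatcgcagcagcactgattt
KMT2A exon 11: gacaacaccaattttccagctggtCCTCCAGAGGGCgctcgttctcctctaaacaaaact
EZH2 intron 1: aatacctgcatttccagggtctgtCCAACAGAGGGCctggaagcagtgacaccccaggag
KAT2A intron 6: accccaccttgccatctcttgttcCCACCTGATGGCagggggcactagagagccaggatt
KMT2D upstream: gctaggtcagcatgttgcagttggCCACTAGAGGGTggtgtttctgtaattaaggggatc
The EZH2 site lay 27809 bp after the start site in an interval with a fold of 6.57, the weakest of the 6. The KMT2D site lay 3311 bp before the start, inside the H3K9Ac interval of 7940 bp, in a CTCF interval with a fold of 8.09. The KAT2A interval was 2479 bp wide, the widest CTCF interval of the 23. A match describes these letters and was not tested as a bound site.

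Beyond the 10 members, 58 further genes of the same systems were listed by function. At their canonical start sites H3K4me3 was past the limits in 56 of 58 genes and H3K9Ac in 55, read against the 59.1% and 58.5% of all protein-coding genes given above. H3K4me1 was past the limits at 41 of 58 starts, against 49.1% of all protein-coding genes and 74.5% of the marked genes. CTCF was past them at 9 of 58, against 13.6% of all protein-coding genes. H3K27me3 was past the limits at the start or in the body of 0 of 58 genes, against 3.03% of all protein-coding genes. H3K36me3 was found in the body of 54 of the 58 genes, against 56.3% of all protein-coding genes and 83.9% of the marked genes. H3K4me1 covered the start site of 26 of 58 genes and of 2 of the 10 members, against 58.3% of the marked genes. The difference between the 58 genes and the 10 members was not tested.

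The genes without H3K4me3 at the canonical start were EZHIP, an inhibitor of PRC2, and HDAC9, a class IIa histone deacetylase. Neither had any of the 6 marks within 1 kb of that start. With the start of any annotated transcript, 57 of the 58 genes had H3K4me3 past the limits, so EZHIP and HDAC9 were not both without it at every start. HDAC8 had H3K4me3 (fold 9.02, 1240 bp) but no H3K9Ac past the limits. The genes listed under H3K4 methyltransferases and shared subunits all carried H3K4me3 and H3K9Ac (10 of 10). Among them SETD1B, the catalytic subunit of another H3K4 methyltransferase complex, had the widest H3K4me3 interval of the 58, 9208 bp. The 4 genes listed under H3K4 demethylases were also all marked, with KDM1A the widest at 2487 bp. Of the 10 genes listed under PRC2 subunits, which include the inhibitor EZHIP, 9 were marked. Among them JARID2, which helps bring PRC2 to DNA, had an interval of 5146 bp. Both genes listed under H3K27 demethylases carried the mark, KDM6B with 4824 bp at a fold of 12.1. The widest in the other lists were SETD3 (3747 bp) of 7 genes listed under H3K36 methyltransferases and KDM4C (3229 bp) of 6 under H3K36 demethylases. EP300 (3284 bp) was the widest of 8 acetyltransferases and module subunits, and HDAC4 (3140 bp) of 11 deacetylases. The lists were made by name and do not hold every gene of each family, so the counts depend on which genes were listed. The activity of each protein was not tested. Median coverage of the body by H3K36me3 was 46.2% over the 58 genes, against 53.9% over the 10 members.

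**Figure D5:**
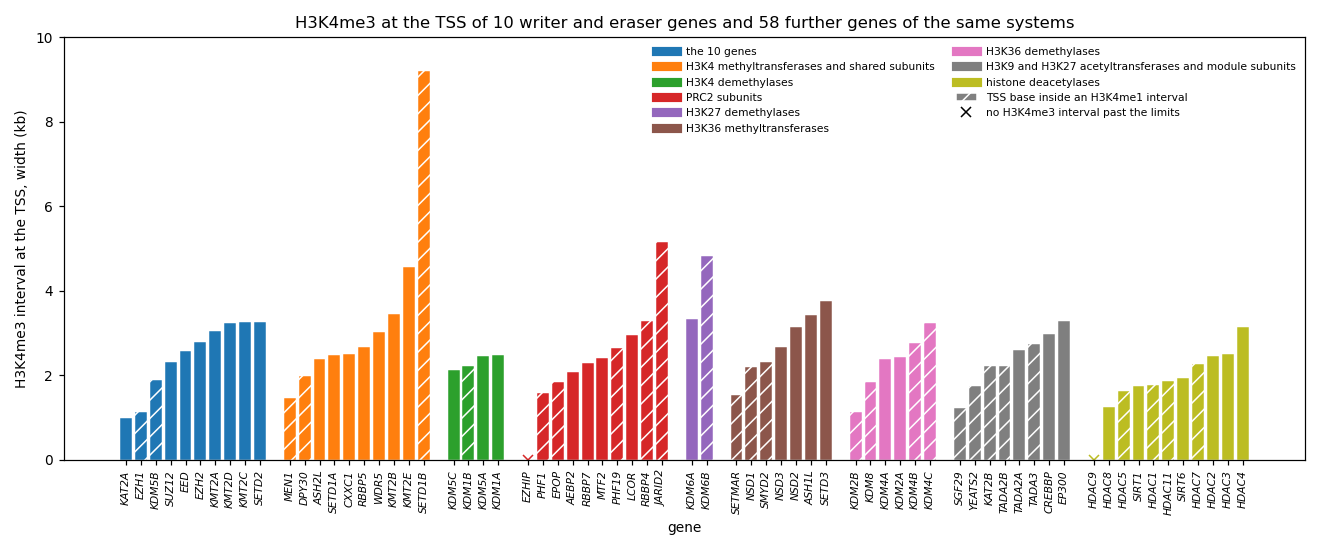
Width in kb of the H3K4me3 interval at the canonical start site of the 10 members and of 58 further genes in 8 lists, 1 bar per gene, hatched where an H3K4me1 interval covers the start site, with a cross where no H3K4me3 interval is past the limits. The members range from 981 to 3254 bp, SETD1B reaches 9208 bp, and EZHIP and HDAC9 carry crosses.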

How the data were processed

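ChIP-seq peak lists of 6 libraries, 1 per mark, were analysed, and H3K27Ac was not analysed here. BWA 0.7.12 was the aligner of the authors, with hg19 as the genome, and broad calls were made per library with MACS2 at a cutoff of 0.1. The submitters' processing notes name MACS 1.4.2, SAMtools 0.1.19 and bcl2fastq 2.20.0.442. The labels give single-end or paired-end reads of 75 bases, and how reads with several placements were treated is not given in the sources used here. Each interval has a fold enrichment, a linear ratio over background that the authors deposited, and a deposited −log10 p-value and −log10 q-value. The display score that the authors deposited was not used.

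The limits were those of the study's methods. None is named for CTCF, which was treated with the stricter pair. Genes came from GENCODE 44 on hg19, with the start of the canonical transcript as the transcription start site (TSS). An overlap needed at least 1 bp, and "at the start" means within 1 kb. Marked genes are those with H3K4me3 past the limits there. Copies were searched with minimap2 2.31 at 95% identity over 50% of an interval. Python 3.11.15, numpy 2.4.6, pandas 2.3.3, scipy 1.17.1, pyfaidx 0.9.0.4, matplotlib 3.10.9, samtools 1.23.1 and bedtools 2.31.1 were used. Overlaps were tested on simulated data, and 0 of 6 lists differed from bedtools.

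The members and lists were chosen with earlier results of these data known. By rule, all 10 members were named, and of the further genes those without H3K4me3 at the start, any with H3K27me3 past the limits and the widest H3K4me3 interval of each list. Other genes were named only where they start within 10 kb of a member or inside an interval it shares. HDAC8 was named after its values were seen. No test was made, since 1 library per mark gives no replicate error. Wilson intervals cover counting error only. Alternatives changed the intervals used, the flank, joining of nearby intervals, the fold limit, the window, the transcripts and the mismatches in the core motif.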

Additional observations from a re-analysis of the deposited data

How the results depend on the processing

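No paired analysis was possible because there was 1 library per mark. Of 50 alternatives, 38 left the value within 1.5 times that reported and 12 moved it further. With only intervals past the limits, the intervals over the 10 genes numbered 13 for H3K9Ac, 0 for H3K36me3, 0 for H3K27me3 and 12 for CTCF, and the median share of the body covered by H3K36me3 was 0%. Without the flanks, there were 19 H3K4me1 and 2 H3K27me3 intervals. With all deposited intervals, 1 member had H3K36me3 within 1 kb of the start, 1 had H3K27me3 and 4 had CTCF, in place of 0. With the start of any annotated transcript, 4 members had CTCF past the limits. With 1 mismatch, 9 CTCF intervals held the core motif in place of 1. The direction of each of these changes follows from how the alternative was built, but its size does not. The count of 0 members with CTCF past the limits at the start holds for canonical starts alone. Joining intervals within 1000 bp joined none over the members and says nothing about stability. The counts of 10 members with H3K4me3 and with H3K9Ac at the start were the same under all 4 alternatives tried for each. Only the fold limit multiplied by 1.5 could have lowered these counts, since the other alternatives loosen the rule. The depth of the libraries is unknown, and it can set the number and width of the intervals and which of them are past the limits.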

Other observations

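The number of annotated transcripts whose start lay within 1 kb of H3K4me3 past the limits varied between the members. It was 21 of 40 at KDM5B, 15 of 70 at KMT2C, 15 of 24 at EZH1, 14 of 34 at KMT2A, 13 of 20 at EZH2, 8 of 14 at EED, 4 of 26 at SETD2, 3 of 35 at KMT2D, 2 of 5 at KAT2A and 2 of 4 at SUZ12. Transcripts of 1 gene often share a start. The same share over other genes was not computed, so no count is read as high or low.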
